A study of Mus musculus with 6 samples.

Results

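The genes described here are 9 outputs and modulators of the circadian clock: the PAR bZIP genes Dbp, Tef and Hlf, their counterpart Nfil3, the basic helix-loop-helix genes Bhlhe40 and Bhlhe41, and Rora, Ciart and Usp2. They were taken by gene symbol from the deposited array values, as the probe sets annotated to exactly 1 gene with such a symbol. This gave 23 of 45037 probe sets, for all 9 of the 9 symbols, out of 18193 genes with a probe set.

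The livers came from male C57BL/6 mice, an inbred strain, given either a high-fat diet with 60% of its kilocalories from fat or a normal diet for 12 weeks from 8 weeks of age. Each diet had 6 mice and 3 Affymetrix Mouse Genome 430 2.0 arrays, and the labels' wording on pooling was taken to mean that each array holds RNA of 2 mice. On that reading n = 3 counts pools of mice, and in any case arrays. The mice of both diets were unmodified and lived under a 12-hour light-dark cycle; the hour of tissue collection is not given in the sources used here. Expression is given as log2 levels after RMA, and each difference subtracts the normal diet mean and carries ± its standard error (SE), from a limma model fitted across all genes. The number of arrays limits the precision.

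In the liver clock, the factors CLOCK and BMAL1 bind E-box elements and drive a daily rhythm of transcription. Dbp, Tef and Hlf encode activators that pass this rhythm on by binding D-box elements, and in mouse liver they are known for their part in the daily control of drug- and lipid-metabolising enzymes. NFIL3 represses through the same D-boxes, BHLHE40 and BHLHE41 repress at E-boxes, RORA activates Arntl, the gene of BMAL1, CIART represses CLOCK and BMAL1, and USP2 removes ubiquitin from clock proteins.

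The promoters of the genes on which the results turn are shown as RefSeq windows of 300 bases, 250 before and 50 after a gene's start (build GRCm38.p6), 5′ to 3′ on the gene's strand. Dbp, Tef, Ciart and Usp2 are shown for their low values in normal diet array 3. On the brightest probe set of each gene, only these 4 members lay over 1 log2 unit below the mean of the other normal diet arrays. Dimmer probe sets of Hlf (1434736_at, -1.37) and Rora (1455165_at, -1.45) also did, while a dimmer one of Tef (1450184_s_at, -0.64) did not. Nfil3 is shown because it lay in the opposite direction, by 0.38. Bhlhe41 also lay 0.38 higher there, but its window is not printed. Capitals mark the E-box CACGTG and the motif AGGTCA, the core of the elements bound by ROR and REV-ERB receptors, found on either strand.
Dbp chr7:45704997-45705296 (+ strand): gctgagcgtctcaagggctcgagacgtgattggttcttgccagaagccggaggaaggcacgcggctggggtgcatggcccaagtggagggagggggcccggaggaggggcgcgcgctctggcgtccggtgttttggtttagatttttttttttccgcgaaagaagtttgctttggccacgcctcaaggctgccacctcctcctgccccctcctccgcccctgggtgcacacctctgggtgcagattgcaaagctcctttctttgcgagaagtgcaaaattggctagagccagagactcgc
Tef chr15:81802423-81802722 (+ strand): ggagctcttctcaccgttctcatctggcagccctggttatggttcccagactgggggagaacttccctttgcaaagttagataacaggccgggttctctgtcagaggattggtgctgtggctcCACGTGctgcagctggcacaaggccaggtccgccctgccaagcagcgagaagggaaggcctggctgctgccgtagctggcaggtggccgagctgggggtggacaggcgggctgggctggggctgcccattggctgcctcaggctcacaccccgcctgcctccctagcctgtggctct
Tef chr15:81811164-81811463 (+ strand): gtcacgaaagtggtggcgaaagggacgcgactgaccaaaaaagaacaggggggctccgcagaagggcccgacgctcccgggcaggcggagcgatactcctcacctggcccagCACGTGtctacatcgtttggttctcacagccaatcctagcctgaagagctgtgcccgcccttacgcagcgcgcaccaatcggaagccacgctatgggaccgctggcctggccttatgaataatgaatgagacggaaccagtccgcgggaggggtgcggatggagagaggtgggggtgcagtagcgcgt
Ciart chr3:95882179-95882478 (- strand): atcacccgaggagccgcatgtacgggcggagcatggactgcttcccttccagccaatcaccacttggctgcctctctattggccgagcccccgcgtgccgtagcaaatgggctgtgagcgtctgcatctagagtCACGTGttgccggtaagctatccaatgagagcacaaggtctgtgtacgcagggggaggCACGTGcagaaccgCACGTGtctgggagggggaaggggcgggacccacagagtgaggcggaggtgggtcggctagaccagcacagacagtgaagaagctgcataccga
Usp2 chr9:44084670-44084969 (+ strand): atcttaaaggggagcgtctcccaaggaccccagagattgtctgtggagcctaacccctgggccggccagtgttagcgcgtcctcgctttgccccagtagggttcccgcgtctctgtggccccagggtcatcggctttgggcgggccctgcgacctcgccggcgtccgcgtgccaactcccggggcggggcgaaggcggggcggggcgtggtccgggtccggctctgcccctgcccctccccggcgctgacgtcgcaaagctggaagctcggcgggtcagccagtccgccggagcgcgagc
Nfil3 chr13:52980990-52981289 (- strand): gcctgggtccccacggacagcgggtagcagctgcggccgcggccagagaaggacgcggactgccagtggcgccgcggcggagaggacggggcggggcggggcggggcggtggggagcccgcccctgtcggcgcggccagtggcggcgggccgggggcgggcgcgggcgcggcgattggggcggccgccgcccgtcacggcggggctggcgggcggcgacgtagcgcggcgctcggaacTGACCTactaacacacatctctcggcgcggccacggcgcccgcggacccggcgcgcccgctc

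CACGTG occurred 3 times in the Ciart window and 1 time in each of the 2 Tef windows, against 7.15% of all 32851 windows with at least 1 match. The Nfil3 window held 1 AGGTCA, as TGACCT on the strand shown, a motif present in 16.3% of windows. The Dbp and Usp2 windows held none of the motifs searched. In all, 9 windows were matched, for 8 genes, all members but Bhlhe40. The exact letters TTATGTAA, a form of the D-box present in 0.938% of windows, were in none of these 9. At that share a match in so few windows would be rare, and other forms of the D-box were not searched. Bhlhe41 had 1 CACGTG. No matches overlapped, and a match is a description of letters and not a bound site.

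Normal diet 3 stood apart from the other arrays. The hour at which its mice were killed is not given in the sources used here, nor that of the other pools, so its values for rhythmic genes cannot be placed in the daily cycle. Over all probe sets its correlation with other arrays was 0.974 to 0.985, against 0.985 to 0.995 among the remaining 5. A measure of RNA integrity, the log2 level of the 3′ Gapdh control minus that of the 5′ one, was 0.006 there, within the -0.19 to 0.36 of the other arrays. Of 14071 genes tested after a filter on low levels, 1070 (7.6%) differed between the diets at a limma adjusted p below 0.05, with 826 (5.87%) higher in high-fat livers and 244 (1.73%) lower. After further quantile normalization the split was 597 and 299. The hepatocyte markers Alb, Apoa1, Ttr, Tat and Cps1 had mean levels of 13.40 to 13.43 in high-fat arrays and 13.47 to 13.52 in normal diet arrays, and 0 of the 5 were called.

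**Figure D1:**
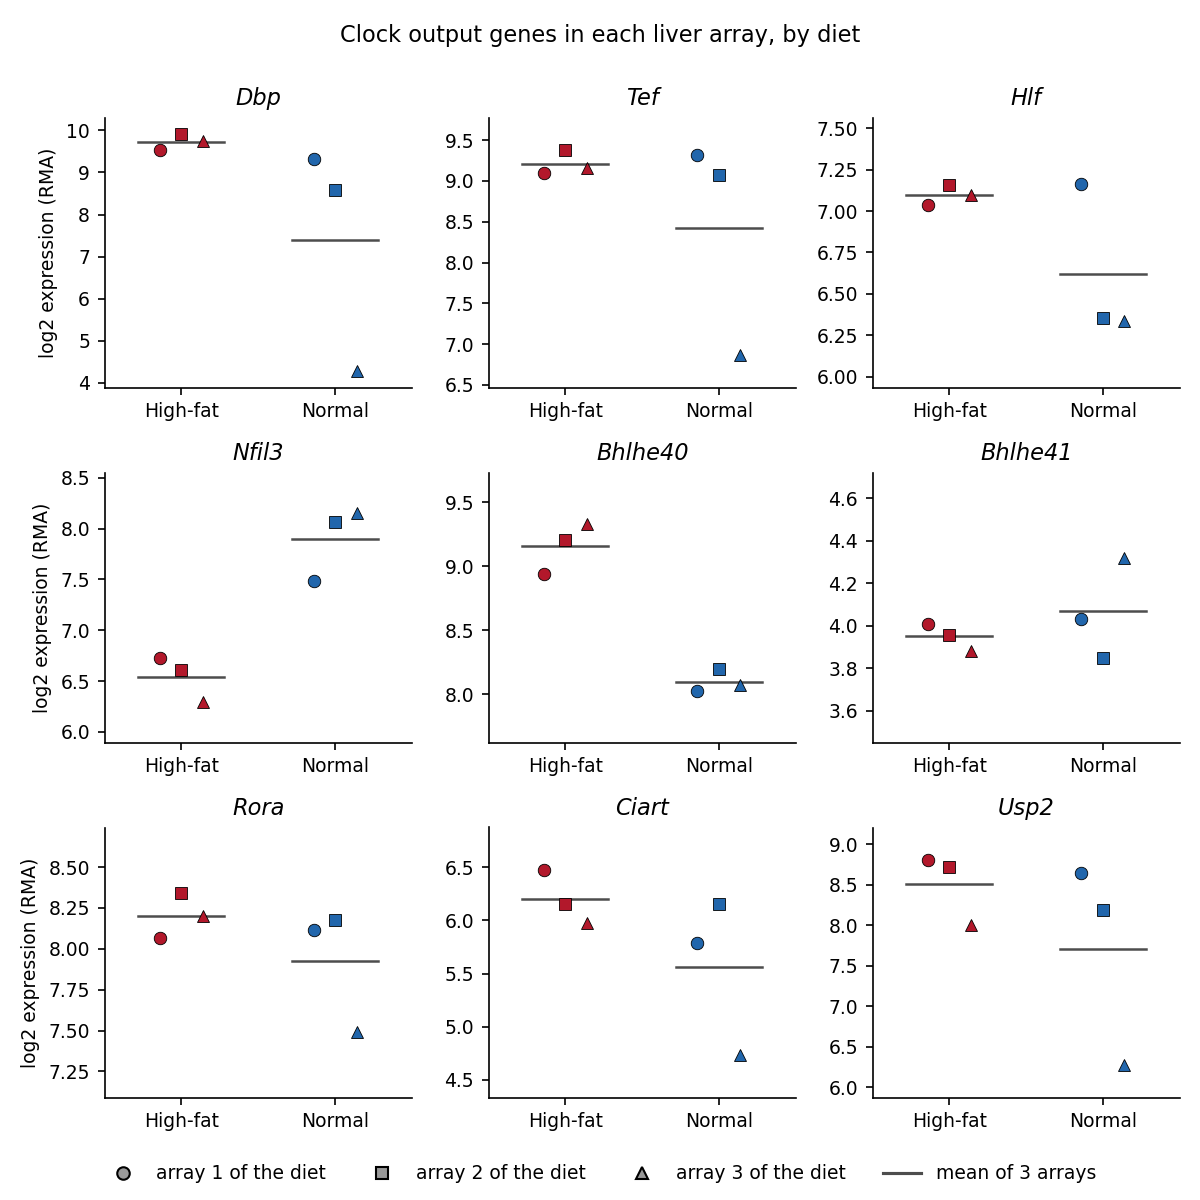
Log2 RMA expression of the 9 clock output genes in each array, with the 3 high-fat arrays (red) left of the 3 normal diet arrays (blue), the array number as marker shape and the mean of 3 arrays as a bar. Each panel has its own vertical range. Bhlhe40 and Nfil3 separate the diets, while normal diet 3 lies far below the other arrays in Dbp, Tef, Ciart and Usp2.

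Of the 9 genes, all of which passed the filter, 1 rose under the high-fat diet (Bhlhe40), 1 fell (Nfil3) and 7 were not called (limma, adjusted over all genes), which is to be read against the 7.6% of genes called in all. The diets did not overlap in 3 of the 9 (Bhlhe40, Nfil3 and Dbp), against 35.8% of all tested genes. The median difference was 0.64 over the 9 genes and 0.00326 over all tested genes. Without normal diet 3 the median of the 9 genes was 0.088, against 0.00803 over all, and the calls were again Bhlhe40 and Nfil3, with 8.85% of all genes called (6.63% higher and 2.22% lower). The median of the group was thus largely set by normal diet 3.

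The PAR bZIP activators come first. Dbp, named for its binding to the albumin promoter, had 9.54, 9.90 and 9.75 in high-fat arrays 1 to 3, against 9.33, 8.59 and 4.29 in normal diet arrays 1 to 3 (probe set 1438211_s_at). The high-fat arrays lay above all normal diet arrays, and normal diet 3 was far below every other array. The difference was 2.33 ± 1.16 and did not pass the test (limma adjusted p = 0.236). With normal diet 3 left out, the value was 0.77 ± 0.22 (adjusted p = 0.0692). The other Dbp probe set, 1418174_at, had 8.59, 8.89 and 8.83 in high-fat arrays and 8.21, 7.76 and 4.99 in normal diet arrays. Both probe sets therefore showed the same order of the diets and the same low array. Fitted probe set by probe set, 1418174_at differed by 1.78 ± 0.74 (adjusted p = 0.192) with all arrays and by 0.78 ± 0.16 (adjusted p = 0.0363) without normal diet 3, so that its call rests on leaving out that array.

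Tef, which encodes a thyrotroph embryonic factor that also binds D-boxes, had 9.09, 9.38 and 9.16 in high-fat arrays and 9.32, 9.07 and 6.87 in normal diet arrays. Normal diet 1 and 2 lay within the range of the high-fat arrays or within 0.1 of it, and normal diet 3 was far below them. The difference of 0.79 ± 0.58 was not called (limma adjusted p = 0.408). Leaving out normal diet 3 gave 0.01 ± 0.13. A dimmer Tef probe set, 1450184_s_at, had 5.32, 5.30 and 5.35 in high-fat arrays and 5.24, 5.44 and 4.70 in normal diet arrays, again with normal diet 3 lowest. The third, 1438033_at, lay near 3 on every array and did not pass the filter.

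Hlf, the hepatic leukemia factor gene, had 7.03, 7.16 and 7.10 in high-fat arrays and 7.16, 6.36 and 6.33 in normal diet arrays (1434735_at). Normal diet 1 was level with the high-fat arrays, and both other normal diet arrays were lower. The difference of 0.48 ± 0.22 was not called (limma adjusted p = 0.206). Leaving out normal diet 1 gave 0.75 ± 0.11, which was called (adjusted p = 0.0164). Its other probe set, 1434736_at, had 6.47, 6.35 and 5.98 in high-fat arrays and 6.09, 5.93 and 4.63 in normal diet arrays. There normal diet 3 was clearly the lowest and normal diet 2 lay next to high-fat 3, so the Hlf probe sets differed in normal diet 2. In the fit by probe set without normal diet 1, 1434736_at differed by 0.98 ± 0.36 and was not called (limma adjusted p = 0.155). The call without normal diet 1 thus held for 1434735_at only.

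Nfil3, the D-box repressor gene, ran in the opposite direction. It had 6.72, 6.61 and 6.29 in high-fat arrays, against 7.48, 8.06 and 8.15 in normal diet arrays. The diets did not overlap, and the gap between the nearest arrays was larger than the range within either diet. Nfil3 fell 2.56-fold under the high-fat diet (-1.36 ± 0.20, limma adjusted p = 0.0118) and by a similar amount without normal diet 3 (-1.23 ± 0.20, adjusted p = 0.0108). Across the 16 alternatives run, the difference was between -1.57 and -1.23 with adjusted p from 0.00497 to 0.0613; the call ended without high-fat 2 (-1.39, adjusted p = 0.0523) and without high-fat 3 (-1.23, adjusted p = 0.0613). In the fit by probe set (adjusted p = 0.0134) it ended without any 1 of the high-fat arrays (adjusted p = 0.0505, 0.0626 and 0.0707 without high-fat 1, 2 and 3).

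Bhlhe40, also called Dec1, was the member that rose. It had 8.94, 9.21 and 9.33 in high-fat arrays, against 8.02, 8.20 and 8.07 in normal diet arrays. The 3 normal diet arrays lay close together, normal diet 3 included, and all were below the lowest high-fat array. Its level was 2.09-fold higher in high-fat livers (1.06 ± 0.13, limma adjusted p = 0.00686). It kept its call in all 16 alternatives of the fit by gene (0.93 to 1.17, adjusted p from 0.00406 to 0.0442). In the fit by probe set its call ended when high-fat 2 was left out (1.04, adjusted p = 0.0502).

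Bhlhe41, its paralogue Dec2, was dim. It had 4.01, 3.96 and 3.88 in high-fat arrays and 4.03, 3.85 and 4.32 in normal diet arrays, close to the filter level of 3.48 to 3.59. The diets overlapped, and the difference was -0.12 ± 0.14 (limma adjusted p = 0.599). Without normal diet 3 it was 0.0082 ± 0.11. The second probe set, 1457096_at, ranged from 3.09 to 3.51 in high-fat arrays and from 3.40 to 3.79 in normal diet arrays.

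Nfil3 and Bhlhe40 are also expressed outside hepatocytes, and markers of other liver cells differed between the diets. Of 6 markers of Kupffer cells and macrophages 4 were called, all higher under the high-fat diet: Adgre1 (0.64), Cd5l (0.81), Vsig4 (0.71) and Cd68 (1.28). Of all tested genes 5.87% were called higher. Clec4f (0.07) and Marco (-0.06), also on the macrophage list, were not called. The mean level of this list was 7.79 to 8.05 in high-fat arrays and 7.18 to 7.47 in normal diet arrays. The endothelial marker Lyve1 (1.36) and the stellate cell markers Lrat (1.43) and Dcn (0.63) were called higher as well, 1 of 5 and 2 of 5 in their lists. The uncalled markers ranged from -0.06 (Clec4g) to 0.31 (Pecam1) in the endothelial list and from -0.06 (Des) to 0.35 (Reln) in the stellate list. The mean levels of these lists were 6.96 to 7.07 and 7.16 to 7.38 in high-fat arrays, and 6.55 to 6.77 and 6.65 to 6.85 in normal diet arrays. None of 4 tested cholangiocyte, 3 lymphocyte or 1 adipocyte markers was called, and Adipoq and Lep did not pass the filter. The part of other cell types in the Nfil3 and Bhlhe40 differences was not tested, and in bulk liver RNA fewer cells of a type and less RNA per cell cannot be told apart.

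Rora, Ciart and Usp2 were not called. Rora, a nuclear receptor gene, had 8.06, 8.34 and 8.20 in high-fat arrays and 8.11, 8.18 and 7.49 in normal diet arrays (1424034_at). Normal diet 1 and 2 fell inside the high-fat range. The difference was 0.28 ± 0.19 (limma adjusted p = 0.380) and became 0.06 ± 0.12 without normal diet 3. Of 9 Rora probe sets 7 passed the filter, with differences from -0.39 to 0.98, 5 above and 2 below 0 and 0 called (adjusted p from 0.160 to 0.859). The largest belonged to 1455165_at, with 7.36, 7.25 and 7.07 in high-fat arrays and 6.68, 6.77 and 5.28 in normal diet arrays. These diets did not overlap even apart from normal diet 3, but the difference without it, 0.49 ± 0.12, did not pass (adjusted p = 0.0621). Probe set 1441085_at ran the other way, with 4.87, 4.93 and 4.77 in high-fat arrays and 5.06, 5.11 and 5.56 in normal diet arrays. Probe set 1420583_a_at ranged from 6.82 to 7.31 in high-fat arrays and from 6.006 to 7.02 in normal diet arrays, and 1458129_at from 4.20 to 4.999 in high-fat and from 4.12 to 4.26 in normal diet arrays. Probe set 1436325_at ranged from 6.43 to 6.92 in high-fat arrays and from 6.47 to 6.82 in normal diet arrays, and 1436326_at from 6.45 to 6.74 in high-fat and from 6.31 to 6.87 in normal diet arrays. The diets overlapped in these 4. The Rora probe sets therefore did not give a single picture of the gene.

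Ciart, also called Chrono, had 6.47, 6.15 and 5.98 in high-fat arrays and 5.79, 6.16 and 4.73 in normal diet arrays. Normal diet 2 was within the high-fat range and normal diet 3 was lowest. The difference of 0.64 ± 0.34 (limma adjusted p = 0.265) became 0.23 ± 0.18 without normal diet 3. Usp2, the deubiquitinase gene, had 8.80, 8.71 and 8.00 in high-fat arrays and 8.65, 8.19 and 6.27 in normal diet arrays (1417169_at). Its other probe set, 1417168_a_at, had 8.74, 8.76 and 7.85 in high-fat arrays and 8.31, 7.99 and 2.90 in normal diet arrays, the last below the filter level of 3.59 on that array. Apart from normal diet 3, the normal diet arrays lay inside the high-fat range in both probe sets. The differences were 0.80 ± 0.57 (adjusted p = 0.391) and 2.05 ± 1.30 (adjusted p = 0.361), and without normal diet 3 they were 0.09 ± 0.25 and 0.30 ± 0.27.

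**Figure D2:**
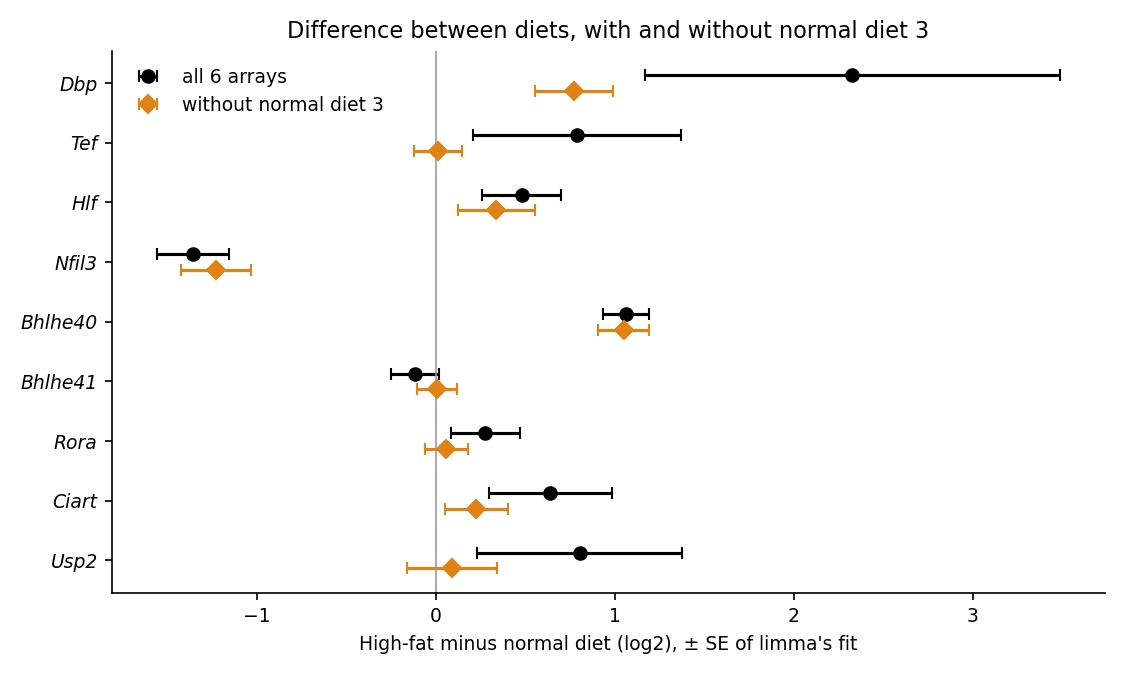
High-fat minus normal diet difference (log2, horizontal axis) of each gene with the SE of limma's fit as error bars, for all 6 arrays (black circles) and without normal diet 3 (orange diamonds). Bhlhe40 and Nfil3 stay at about the same value, while Dbp moves to 0.77 from 2.33 and Tef and Usp2 move close to 0.

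Normal diet 3 was the extreme array for most of these genes. In 6 of the 9 genes (Dbp, Tef, Hlf, Rora, Ciart and Usp2) that array was the lowest of all 6, though in Hlf only just below normal diet 2. In Nfil3 and Bhlhe41 it was the highest. Over all tested genes normal diet 3 was the lowest array in 28.0% and the highest in 27.0%. Against the mean of normal diet 1 and 2, Dbp in normal diet 3 differed by -4.67, Tef by -2.33, Usp2 by -2.15 and Ciart by -1.24. The genes below -2 in this measure made up 0.341% of all tested genes (48 of 14071), and 3 of the 9 members were among them. Dbp was the 3rd lowest of all tested genes, Tef the 34th, Usp2 the 39th and Ciart the 203rd. Nfil3 was higher there by 0.38, the 1236th highest, and Bhlhe40 differed by -0.04. The Dbp value of 4.29 in normal diet 3 lay near that array's median of 4.05 over all probe sets. The size of the Dbp fall is thus limited by the background.

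**Figure D3:**
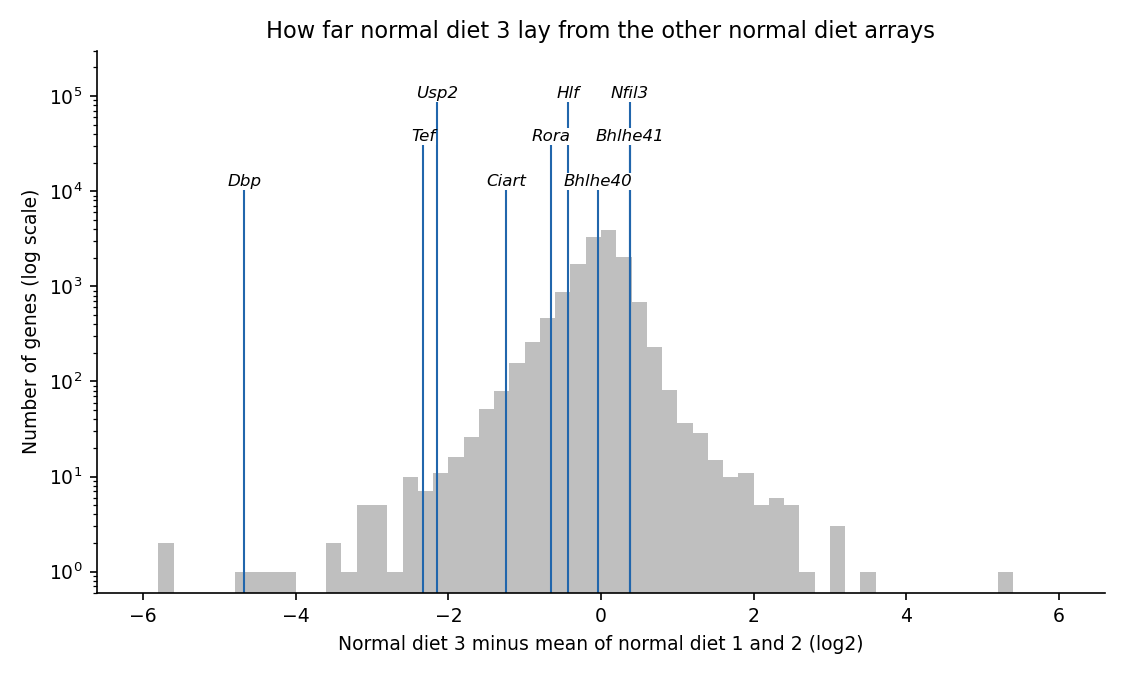
Histogram of the difference between normal diet 3 and the mean of normal diet 1 and 2 (log2, horizontal axis) over 14071 tested genes, with the number of genes on a log scale and blue lines at the 9 clock output genes. Dbp at -4.67, Tef at -2.33 and Usp2 at -2.15 lie in the lower tail, and Bhlhe40 at -0.04 lies near the middle. Nfil3 at 0.38 lies above the middle but below the 95th percentile of 0.484.

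The same held by probe set. Of the 20 member probe sets that passed the filter, normal diet 3 was the lowest array in 13 and the highest in 3, against 25.7% and 28.0% of all tested probe sets. Called probe sets were the 2 of Nfil3 and Bhlhe40, to be read against 5.33% of the 27399 tested. Without normal diet 3 these 2 and the Dbp probe set 1418174_at were called, against 5.96% of all. The diets did not overlap in 6 of the 20, against 32.5% of all tested probe sets. The 3 that did not pass the filter were those of Tef (1438033_at) and Rora (1424035_at and 1458145_at), all near 3.

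**Figure D4:**
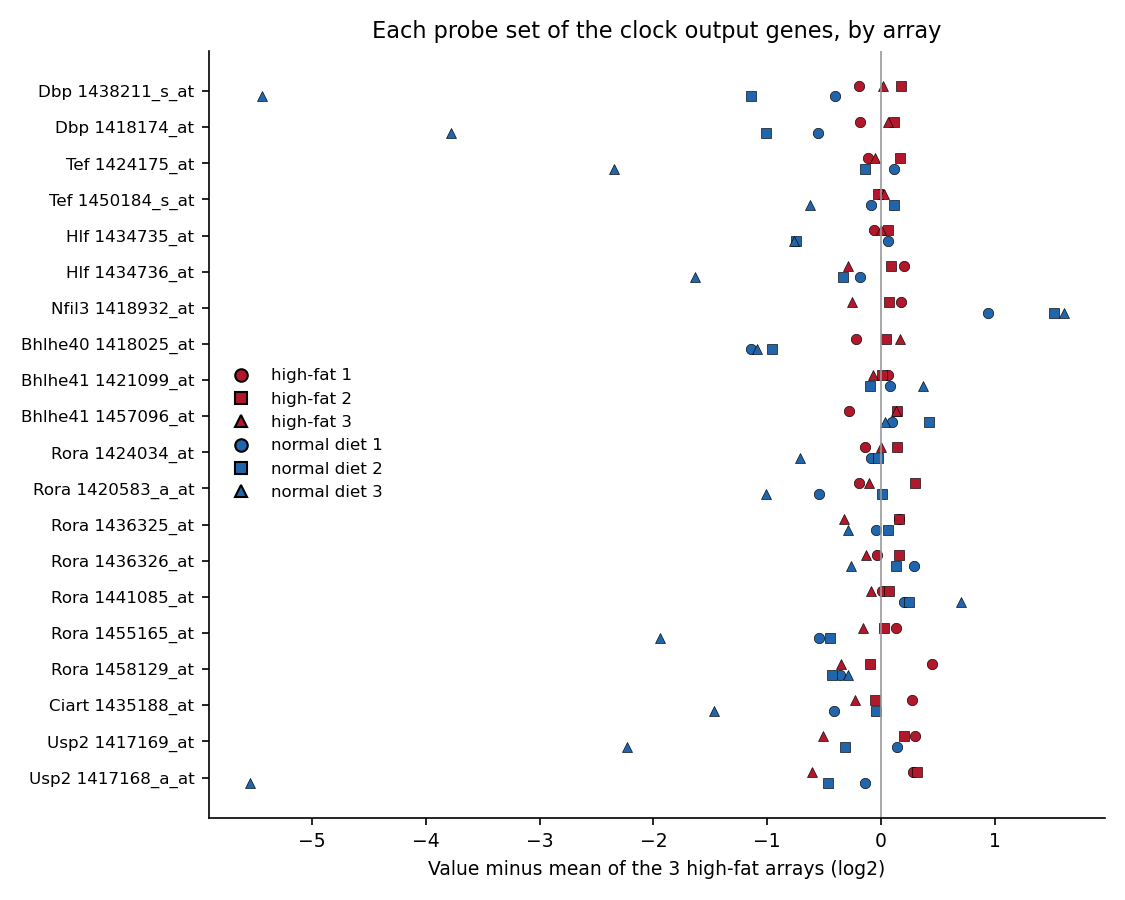
Value of each of the 20 probe sets above the filter minus its mean over the 3 high-fat arrays (log2, horizontal axis), with high-fat arrays in red, normal diet arrays in blue and the array number as marker shape. Normal diet 3 (blue triangles) lies far below the other arrays in both Dbp and both Usp2 probe sets. It is also below them in both Tef probe sets, Ciart and Hlf 1434736_at. In Hlf 1434735_at it is level with normal diet 2 (6.33 and 6.36), and 1 Rora probe set runs the other way.

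By the likeness of centred profiles over the 6 arrays, the genes closest to Dbp among all tested were Cyp4a14 (root mean square difference 0.54 log2), N4bp2l1 (0.61), Upp2 (0.66), Odr4 (0.69) and Rdh16 (0.73). Cyp4a14, a fatty acid hydroxylase gene, had 11.23, 10.65 and 11.38 in high-fat arrays and 11.27, 11.06 and 5.49 in normal diet arrays. Upp2, a uridine phosphorylase gene, had 10.21, 9.69 and 8.99 in high-fat arrays and 10.40, 9.50 and 4.29 in normal diet arrays. These 5 profiles share a low value in normal diet 3, at -5.67 to -3.06 from the mean of normal diet 1 and 2. Profiles were centred but not scaled, so only a gene with a large fall in normal diet 3 could come close to Dbp. The shared low value thus follows from the measure. None of the 5 was called (limma adjusted p from 0.224 to 0.503). Of the 14070 other tested genes Tef was the 23rd closest to Dbp, Usp2 the 33rd and Ciart the 253rd. Bhlhe40 was the 1250th, Hlf the 1257th, Rora the 1370th, Bhlhe41 the 12160th and Nfil3 the 13962nd. These ranks depend mainly on the value in normal diet 3 and do not measure how alike the genes are otherwise.

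Of 13 listed core clock genes 11 were tested, and 0 rose, 0 fell and 11 were not called by limma, with 0 at an unadjusted p below 0.05, to be read against 7.6% of all genes called. The median difference was 0.13 with all arrays and 0.027 without normal diet 3. Per2, a period gene of the repressing arm, had 6.34, 6.32 and 6.06 in high-fat arrays and 6.36, 6.37 and 4.33 in normal diet arrays (0.55 ± 0.51, adjusted p = 0.510). Arntl, which encodes BMAL1, had 4.65, 4.70 and 4.81 in high-fat arrays and 4.43, 4.84 and 5.57 in normal diet arrays (-0.23 ± 0.26, adjusted p = 0.605). On the brightest probe set of each gene, normal diet 3 was thus the lowest array for Per2 and the highest for Arntl. The other arrays of both diets lay close together there. Averaged over the probe sets of each gene, the differences were 0.25 ± 0.26 for Per2 and -0.24 ± 0.15 for Arntl. Another Arntl probe set gave -0.25 ± 0.10. The place of normal diet 3 in the other probe sets of these genes was not examined. Nr1d1, which encodes REV-ERBα, had 4.86, 4.75 and 5.13 in high-fat arrays and 4.69, 4.83 and 4.85 in normal diet arrays (0.13 ± 0.13, limma adjusted p = 0.545). Nr1d1 and Arntl were dim, with array medians over all probe sets at 3.96 to 4.05, and RMA compresses differences near background. In 7 of the 11 genes normal diet 3 was the lowest array, though Rorb lay only 0.01 below the mean of normal diet 1 and 2. In 2 of the 11, Arntl and Timeless, normal diet 3 was the highest. Without it, Per2 differed by -0.13 and Arntl by 0.088, again with 0 of 11 called and 1 at an unadjusted p below 0.05.

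**Figure D5:**
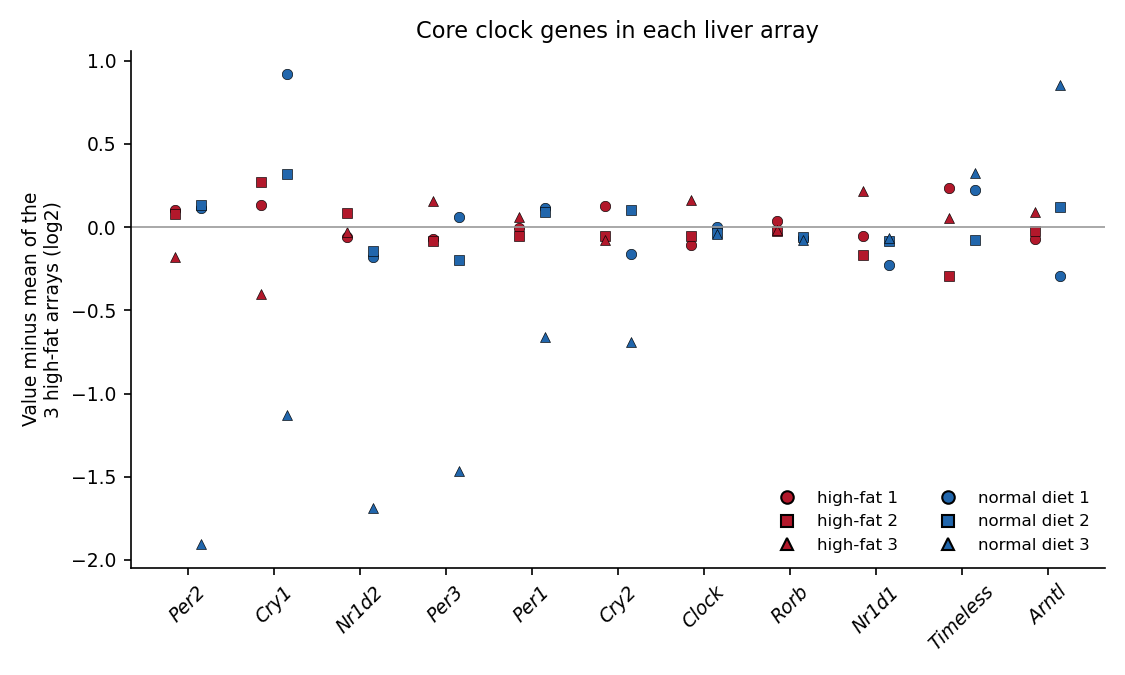
Value of each tested core clock gene minus its mean over the 3 high-fat arrays (log2, vertical axis), with high-fat arrays in red left of normal diet arrays in blue, ordered by the distance of normal diet 3 from normal diet 1 and 2. Normal diet 3 (blue triangles) is lowest in Per2, Cry1, Nr1d2, Per3, Per1 and Cry2, and by a very small margin in Rorb. It is highest in Arntl and Timeless, and no gene was called.

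Among 15 tested clock kinase, phosphatase and ubiquitin ligase genes 1 rose, 0 fell and 14 were not called (median difference 0.079), a share near the 7.6% of all genes called. Ppp1ca, a catalytic subunit gene of protein phosphatase 1, had 10.38, 10.28 and 10.46 in high-fat arrays and 9.56, 9.86 and 9.84 in normal diet arrays. The diets did not overlap (0.62 ± 0.12, limma adjusted p = 0.0264). The call ended after cyclic loess (0.49, adjusted p = 0.0637), after quantile normalization (0.51, adjusted p = 0.0529), with a replicate block (adjusted p = 0.0533) and without high-fat 1, 2 or 3 (adjusted p = 0.0988, 0.0779 and 0.109). Gsk3b, a kinase gene, differed by 0.35 ± 0.10 (adjusted p = 0.0864), the ubiquitin ligase gene Fbxw7 by 0.48 ± 0.16 (0.111) and the AMP-activated kinase gene Prkaa2 by 0.48 ± 0.21 (0.198). Fbxw7 was called without normal diet 1 (0.65, adjusted p = 0.0277), but another of its probe sets gave 0.19 (limma adjusted p = 0.358). Averaged over their probe sets, Gsk3b, Fbxw7 and Prkaa2 differed by 0.11, 0.33 and 0.31 (limma adjusted p = 0.399, 0.145 and 0.274).

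Of 24 listed targets of the PAR bZIP factors and other rhythmic liver outputs 19 were tested. Of these 0 rose, 4 fell and 15 were not called, to be read against 7.6% of all genes called and 1.73% called lower. The list was chosen with earlier results of these data known, so this is not an independent comparison. The median difference was 0.15 with 11 above and 8 below 0, and it turned to -0.17 without normal diet 3, with 7 above and 12 below 0. Cyp2c37, a drug-metabolising cytochrome P450 gene, had 9.37, 8.75 and 9.55 in high-fat arrays and 11.86, 11.35 and 10.51 in normal diet arrays (-2.02 ± 0.35, limma adjusted p = 0.0186). Cyp2c50, of the same family, had 11.81, 11.67 and 11.85 in high-fat arrays and 12.86, 12.91 and 12.41 in normal diet arrays (-0.95 ± 0.15, adjusted p = 0.0139). Both were lower in every high-fat array than in any normal diet array, and probe sets of the Cyp2c and Ces families can pick up close relatives. Ces2a, a carboxylesterase gene, had 9.73, 9.84 and 9.50 in high-fat arrays and 10.83, 10.37 and 10.88 in normal diet arrays (-1.003 ± 0.17, adjusted p = 0.0154). Avpr1a, a vasopressin receptor gene, had 3.74, 3.58 and 3.76 in high-fat arrays and 5.73, 4.71 and 6.62 in normal diet arrays (-1.997 ± 0.42, adjusted p = 0.0327). The high-fat values of Avpr1a lay just above the filter level of 3.48 to 3.50 on those arrays, so the size of its difference is limited by the background. All 4 separated the diets fully, as did 5 of the 19 genes in all, against 35.8% of all tested genes. The call of each ended on omission of any 1 high-fat array (adjusted p between 0.0528 and 0.120), and Avpr1a also without normal diet 1 (-1.97, adjusted p = 0.0624) and when its probe sets were averaged (-1.78, adjusted p = 0.0674). In 13 of the 19 genes normal diet 3 was the lowest array.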

How the data were processed

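The authors deposited RMA values on the log2 scale for every probe set; the submitters' processing notes name Affymetrix Expression Console 1.0. RMA corrects background, quantile-normalizes arrays and summarises probes, and compresses differences near background. Of 45101 probe sets 64 controls were left out, and 34945 of the remaining 45037 had 1 gene symbol, 932 had several and 9160 are unnamed here. Gene IDs of 34741 matched a RefSeq table (GRCm38.p6), with 0 symbols changed.

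Where a gene had several probe sets, the one brightest on average stood for it, and a gene was tested if it exceeded each array's own 40th percentile in 3 or more of the 6 arrays. limma 3.58.1 (R 4.3.3) compared the diets by lmFit and eBayes (two-sided). A call is a Benjamini-Hochberg adjusted p, over every gene tested, below 0.05. Nothing says whether the pools came from separate cages or days, so p-values measure only the spread between these arrays. The same fit was run on all probe sets above the filter. The script was tested on simulated data.

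The members and lists were chosen with earlier results of these data known. Named genes were all members, Nr1d1, Arntl and Per2, any called core clock gene, the 4 smallest p-values of each other list and the 5 profiles closest to Dbp. Summaries used pandas 2.3.3 under Python 3.11.15, and figures matplotlib 3.10.9. Scanner files were not used here.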

Additional observations from a re-analysis of the deposited data

How the results depend on the processing

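Alternatives were other level filters, variance models, scalings and choices of probe set, a replicate block, and fits that omit 1 array at a time. The counts of called genes, member genes and member probe sets were 1070, 2 and 2 with all arrays. Leaving out 1 array gave 169 to 1245 genes, 1 to 3 member genes, 186 to 1632 probe sets (1460 with all arrays) and 0 to 3 member probe sets. It gave 0 core clock genes throughout, 0 to 2 kinase and ligase genes and 0 to 6 output genes. The low counts came with a high-fat array left out: 272, 217 and 169 genes without high-fat 1, 2 and 3. With a replicate block 768 genes and 965 probe sets were called and 0 kinase and ligase genes, while Bhlhe40 and Nfil3 kept their calls (adjusted p = 0.0180 and 0.0348). After cyclic loess and after quantile normalization the kinase and ligase count was also 0. The cause was not tested. The arrays share only replicate numbers: deviations of same-numbered arrays correlated at -0.012, 0.036 and 0.0999, and high-fat 2 correlated best with normal diet 1 (0.079). Without normal diet 3 the sign turned for Bhlhe41 (0.0082), Arntl (0.088), Per2 (-0.13), Cyp4a14 (-0.077), Upp2 (-0.32), the Tef probe set 1450184_s_at (-0.014) and the Rora probe set 1436325_at (-0.013). That Rora probe set was also at -0.035 after quantile normalization, and 1436326_at was at 0.0098 without high-fat 3 and 0.066 without normal diet 1; none of these was called. Over all fits that omit 1 array the ranges were -0.23 to 0.0082 for Bhlhe41, -0.49 to 0.088 for Arntl, -0.13 to 0.89 for Per2, -0.077 to 2.81 for Cyp4a14, -0.32 to 2.74 for Upp2, -0.014 to 0.35 for 1450184_s_at, -0.013 to 0.25 for 1436325_at and -0.21 to 0.066 for 1436326_at. Array weights gave smaller differences for Dbp (1.54), Tef (0.40), Usp2 (0.50) and Ciart (0.37), and Bhlhe41 was not tested with the filter at the 60th percentile. Signal near background limits Bhlhe41 and the dim Tef and Rora probe sets. It also limits Rorb, at 3.89 to 3.998, and may limit the dim core clock genes Nr1d1, Arntl and Timeless. The low values of Dbp, Upp2 and Odr4 in normal diet 3 (4.29, 4.29 and 4.27) were near background as well.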

Other observations

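With all arrays, most of the 9 clock output genes varied less among the high-fat arrays than among the normal diet arrays. The SD of Dbp was 0.184 over the 3 high-fat arrays and 2.72 over the 3 normal diet arrays, and that of Tef 0.149 and 1.35. The normal diet SD was the larger in 8 of the 9 genes, Bhlhe40 being the exception (0.202 in high-fat and 0.0929 in normal diet arrays). The median SD of the members was 0.184 in high-fat and 0.473 in normal diet arrays, against 0.117 and 0.166 over all tested genes, in 66.7% of which the normal diet SD was also the larger. Among all tested genes the Dbp SD in normal diet arrays was the 7th highest. Normal diet 3 carried much of this: from normal diet 1 and 2 alone the SD was 0.523 for Dbp and 0.180 for Tef, and the normal diet SD was the larger in 6 of the 9 genes, against 48.9% of all tested genes. For Rora (0.139 in high-fat and 0.0450 in normal diet arrays) and Usp2 (0.441 and 0.327) it was then the smaller.

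Some rhythmic outputs that were not called also took extreme values in normal diet 3, named here after their values were seen. Nampt, a gene of NAD synthesis, had 7.52, 7.62 and 7.04 in high-fat arrays and 7.43, 7.65 and 5.17 in normal diet arrays. Gys2, the liver glycogen synthase gene, had 9.03, 9.22 and 8.85 in high-fat arrays and 9.44, 8.97 and 7.57 in normal diet arrays. Elovl3, a fatty acid elongase gene, ran the other way, with 8.52, 9.25 and 9.32 in high-fat arrays and 9.08, 8.83 and 10.32 in normal diet arrays.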
